A study of Mus musculus with 6 samples.

Results

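The 44 genes described here encode proteins of DNA replication (S phase) and of mitosis. They were given as gene symbols, and 43 of them had a probe set naming that gene alone on the array. Each gene was read from its brightest such probe set, and 37 of the 44 passed a filter on dim probe sets and were tested among 12952 genes. By role, 18 of the 44 were assigned to S phase (16 tested) and 26 to mitosis (21 tested). The RNA was that of alveolar type II cells, which make lung surfactant, isolated from mice aged 2 months. The deleted genotype was Insig1 ∆/∆ /Insig2 -/-, in which a Cre recombinase (Otet-CRE) driven by SpC-rtTA under doxycycline deletes floxed Insig1 (the SP-C promoter is active in lung epithelium). The control genotype was Insig1 flox/flox /Insig2 -/-, whose mice lacked either SpC-rtTA or Otet-CRE, and both genotypes carried Insig2 -/-. Per the labels, doxycycline was given during embryonic life, from E6.5 to E12.5. There were 3 arrays per genotype, each with the RNA of 1 independent pool. The sources used here do not say how many mice made a pool, and p-values measure only the spread between pools. No group carried the complete Cre system with intact Insig1, so an effect of the Cre system and one of Insig1 loss cannot be told apart.

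In G1, cells load the MCM helicase onto origins, and E2F transcription factors switch on the genes for origin firing, nucleotide supply and cyclin E. Later in the cycle a complex of MuvB, B-MYB and FOXM1 switches on the mitotic genes, whose promoters often carry a short element called the cell cycle homology region. In quiescent cells the DREAM complex holds both classes down. Type II cells of a healthy adult lung seldom divide, but they act as progenitors of the alveolus after injury. Alveolar macrophages also renew themselves in the lung by division.

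Values are MAS5 probe set signals on a linear scale, and fold changes are differences of mean log2 signal, deleted minus control. The arrays had medians between 426 and 479 and were used without further scaling. The Insig1 signal was 1252, 1442 and 1750.4 in Insig1-deleted pools, against 2300.1, 3325 and 2959.5 in floxed control pools (log2 fold change -0.95 ± 0.18, SE; adjusted p = 0.068, limma). The groups did not overlap. The Insig2 signal was 2107, 1904 and 1930.5 in Insig1-deleted pools, against 2626, 2277 and 1844 in floxed control pools (log2 -0.17 ± 0.16, adjusted p = 0.73), well above the filter in both genotypes. The sources used here do not say whether either probe set lies in the deleted part of its gene, so these signals do not check the deletions. Type II markers were bright, with summed signals over 15 genes between 998259 and 1179704 in deleted pools and between 1004997 and 1199335 in control pools. Control replicate 3 stood apart on the first principal component of all genes, at 39.1, where deleted pools lay between -18.7 and -12.3 and control replicates 1 and 2 at 12.9 and -3.35.

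No DNA replication or mitosis gene passed the adjusted threshold of 0.05, yet most had a positive fold change. Over all 43 measured genes 35 had a log2 fold change above 0 and 8 below, with a median of 0.33. Among all 18193 genes measured without a filter 46.5% lay above 0 and the median was -0.024. For 12 of the 43 every deleted pool was above every control pool (7.54% of those genes), and for 1 it was below (7.64%). Among the 37 tested genes 31 lay above 0 and 6 below, where 49.1% of all tested genes lay above 0. By limma with Benjamini-Hochberg adjustment 0 of the 37 were called, while 0.649% of all tested genes were, 0.625% as higher and 0.0232% as lower. At an unadjusted p under 0.05, 11 of the 37 were higher in deleted pools (6.05% of all tested genes) and 0 were lower (6.02%). The 11 were Mki67, Kif23, Cdc20, Mcm3, Rrm2, Ccnb2, Mcm2, Kif20a, Birc5, Cdca8 and Aurka. In bulk RNA a larger share of dividing cells and more transcript per cell cannot be told apart.

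The number of genes at an unadjusted p under 0.05 rested on single pools. It was 3 of 37 without deleted replicate 1 (4.52% of all tested genes in that fit), 8 without deleted replicate 2 (4.05%) and 6 without deleted replicate 3 (4.34%). Leaving out a control pool gave 5 for replicate 1 (5.57%), 15 for replicate 2 (7.84%) and 8 for replicate 3 (6.8%). Single fold changes rested on pools as well: 27 of the 37 changed sign or moved by over 1.5 times when some pool was left out. The other 10 were Mcm2, Rrm1, Rrm2, Cdc20, Aurka, Kif20a, Kif23, Birc5, Cdca8 and Mki67. This limit is a ratio, so a fold change near 0, such as that of Bub1 or Mcm7, passes it readily. The share over all tested genes was not counted, so whether such movement is particular to these genes is not known. Only Mki67 and Kif23 stayed at an unadjusted p under 0.05 in all 6 fits that left out a pool. How many of all tested genes did so was not counted either. Without control replicate 2 Mki67 and Cdc20 passed the adjusted threshold, and without control replicate 3 Kif23 did (adjusted p of 0.026, 0.034 and 0.027, limma), where 3.68% and 1.33% of all tested genes did. The 4 genes Cdk1, Kif11, Kif20a and Kif23 passed the filter only through the deleted pools, since their control mean lay below it. The counts over tested genes therefore include genes selected in part by their high deleted pools, while the counts over the 43 measured genes do not depend on the filter.

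**Figure D1:**
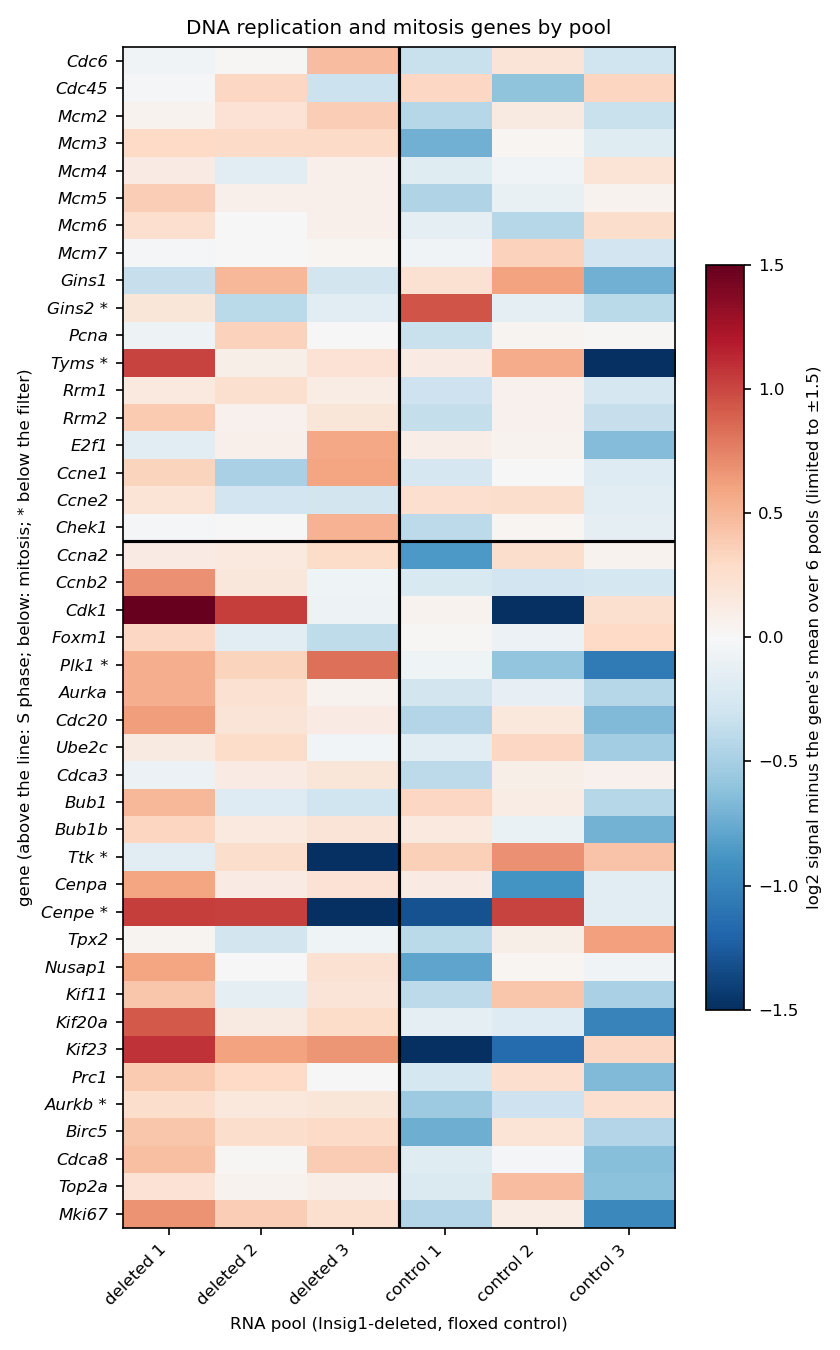
Log2 signal of the 43 measured genes in each pool (columns), centred on each gene's mean over the 6 pools and limited to ±1.5. S phase genes stand above the horizontal line and mitosis genes below it, and a star marks the 6 genes below the filter. Deleted pool 1 was highest for 18 of the 37 tested genes, and control pool 2 was among the 3 highest for 19.

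Across pools the genes did not split by genotype alone. Deleted replicate 1 had the highest of the 6 signals for 18 of the 37 tested genes and the lowest for none. Control replicates 1 and 3 were lowest for 15 and 14 genes. Control replicate 2 was among the 3 highest pools for 19 genes and the other control pools for 7 each. For 11 tested genes every deleted pool lay above every control pool, against 9.2% of all tested genes, and for 0 it was the reverse (7.9%). Without control replicate 2 the numbers were 23 of 37 and 15.9% of all tested genes. The median SD of log2 signal over the tested genes was 0.236 among deleted pools and 0.385 among control pools, against 0.152 and 0.226 over all tested genes. After removal of the group means, pairs of these genes had a median correlation of 0.194 over the 6 pools (666 pairs), where the median over all pairs of tested genes was 0. That correlation is a description over pools that share a library for every gene. It was 0.236 among mitosis genes and 0.192 among S phase genes.

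The median log2 fold change was 0.52 over the 21 tested mitosis genes, of which 19 lay above 0, and 0.29 over the 16 tested S phase genes, of which 12 did. Over all measured genes of each kind, filtered or not, the medians were 0.45 (25 genes) and 0.29 (18 genes). At an unadjusted p under 0.05 there were 8 of 21 mitosis and 3 of 16 S phase genes higher (6.05% of all tested genes). The mitosis count was 2 without deleted replicate 1 (4.52%), 5 without control replicate 1 (5.57%) and 5 without control replicate 3 (6.8%). The S phase count was 1 without deleted replicate 1 (4.52%), 0 without deleted replicate 3 (4.34%) and 0 without control replicate 1 (5.57%), and the S phase median was 0.14 without deleted replicate 3. Kif20a and Kif23, both among the 8 mitosis genes, passed the filter only through the deleted pools. So did Cdk1 and Kif11, which are mitosis genes too, and no S phase gene did. Without the filter the counts were 6 of 25 mitosis and 3 of 18 S phase genes (4.78% of all genes). The difference between the classes was not tested, because the genes share pools.

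**Figure D2:**
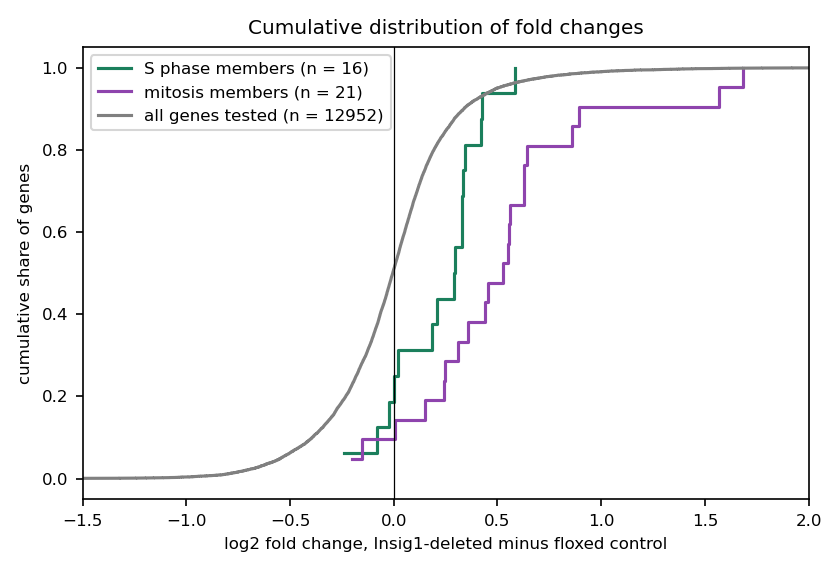
Cumulative share of genes (vertical axis) against log2 fold change, Insig1-deleted minus floxed control, for 16 S phase genes, 21 mitosis genes and all 12952 genes tested. The axis is limited to -1.5 to 2, which leaves out the ends of the curve for all genes. The S phase curve has its median at 0.29 and the mitosis curve at 0.52, both right of the curve of all genes.

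Promoter elements of both classes were counted in the sequence around the gene starts. RefSeq promoter windows (GRCm38.p6), running from 250 bases before to 50 after the transcription start, were found for 35 of the 44 genes. Mcm4, Gins1, Gins2, Ccne2, Ccna2, Foxm1, Aurkb, Tpx2 and Kif20a were not matched. Both strands were searched, and overlaps between motifs were allowed. The letters TTTGAA of the cell cycle homology region were found in 16 of 21 mitosis windows (76.2%) and in 2 of 14 S phase windows (14.3%), against 18.1% of 27025 windows, 1 per gene, and 11.8% of the 10429 windows of genes tested here. An E2F site, spelled TTTGGCGC, TTTCGCGC or TTTCCCGC, was found in 1 mitosis window (Cdk1) and in 5 S phase windows (35.7%; Cdc6, Mcm3, Mcm5, Mcm6 and Mcm7), against 1.9% of all windows and 3.5% of those of tested genes. The letters CCAAT, the NF-Y box, were found in 19 mitosis windows (90.5%) and 9 S phase windows (64.3%), against 37.9% of all windows. All 16 mitosis windows with TTTGAA also held CCAAT, and 7.1% of all windows held both. A match describes the letters and is no measured binding.

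The windows shown are those of the 2 S phase and the 2 mitosis genes with the smallest p among genes with a window. They were not chosen by their motifs, and a link between motifs and signals was not tested. Capitals mark the motifs on either strand, and positions count from the transcription start at 1. In Mcm3 (chr1:20820263-20820562, minus strand) the E2F letters lie at 20 to 27 and 39 to 46. In Mki67 (chr7:135716330-135716629, minus strand) the TTTGAA letters lie at -116 to -111 and -98 to -93, behind 3 CCAAT boxes. In Kif23 (chr9:61946750-61947049, minus strand) they lie at 3 to 8, just after a CCAAT box. The Rrm2 window (chr12:24708004-24708303, plus strand) held CCAAT alone, at -50 to -46.
Mki67: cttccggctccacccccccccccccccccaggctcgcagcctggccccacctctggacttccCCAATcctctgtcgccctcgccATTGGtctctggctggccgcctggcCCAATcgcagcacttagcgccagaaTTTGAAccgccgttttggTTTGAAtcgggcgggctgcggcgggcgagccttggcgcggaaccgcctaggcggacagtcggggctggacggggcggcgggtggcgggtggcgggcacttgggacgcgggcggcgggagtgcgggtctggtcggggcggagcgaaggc
Kif23: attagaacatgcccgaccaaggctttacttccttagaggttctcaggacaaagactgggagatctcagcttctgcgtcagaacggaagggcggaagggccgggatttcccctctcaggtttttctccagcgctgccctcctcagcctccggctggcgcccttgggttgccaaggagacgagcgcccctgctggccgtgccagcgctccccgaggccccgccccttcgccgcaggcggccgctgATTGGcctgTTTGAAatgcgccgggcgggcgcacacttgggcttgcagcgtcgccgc
Mcm3: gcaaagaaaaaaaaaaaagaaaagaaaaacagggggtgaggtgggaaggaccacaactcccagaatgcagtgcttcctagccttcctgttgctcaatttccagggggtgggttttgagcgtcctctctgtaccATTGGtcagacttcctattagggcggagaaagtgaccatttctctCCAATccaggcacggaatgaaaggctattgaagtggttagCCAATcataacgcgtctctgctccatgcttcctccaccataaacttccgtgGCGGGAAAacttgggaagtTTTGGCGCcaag
Rrm2: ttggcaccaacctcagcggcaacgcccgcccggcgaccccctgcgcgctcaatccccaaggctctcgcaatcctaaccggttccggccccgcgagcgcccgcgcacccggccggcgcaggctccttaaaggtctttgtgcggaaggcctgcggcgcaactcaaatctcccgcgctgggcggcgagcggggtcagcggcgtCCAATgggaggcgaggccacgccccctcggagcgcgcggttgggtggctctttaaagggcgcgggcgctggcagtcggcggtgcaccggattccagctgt

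Both genes of mitotic chromosome structure lay above 0. Mki67 encodes Ki-67, which coats mitotic chromosomes and marks cycling cells. Its signals were 2246, 1820.4 and 1658 in Insig1-deleted pools, against 1039, 1524 and 717 in floxed control pools. No deleted pool overlapped a control pool, and control replicate 2 came closest. Mean signals were 1908 ± 304 in deleted pools and 1094 ± 406 in control pools (SD, n = 3 each). On the log2 scale the difference was 0.86 ± 0.26 (adjusted p = 0.24, limma). Top2a, the topoisomerase that untangles sister chromatids, had signals of 1793, 1608 and 1664 in Insig1-deleted pools, against 1332, 2133 and 1011 in floxed control pools. Here control replicate 2 was the highest of all 6 pools, and the log2 fold change was 0.25 ± 0.25 (adjusted p = 0.75). With control replicate 2 left out it was 0.54, and with control replicate 3 left out 0.00093.

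Genes that control entry into and exit from mitosis lay higher in most cases, with 7 of 8 tested above 0 (median log2 0.44). Among all tested genes 49.1% lay above 0, and Cdk1 of this role passed the filter only through the deleted pools. Cdc20, which activates the anaphase-promoting complex, had signals of 4845, 3607 and 3412 in Insig1-deleted pools, against 2322, 3505 and 1988 in floxed control pools. Control replicate 2 lay within the range of the deleted pools and the other controls lay below it. Mean signals were 3954 ± 777 in deleted pools and 2605 ± 797 in control pools (SD, n = 3 each). The log2 difference was 0.63 ± 0.22 (adjusted p = 0.31), and the other probe set above the filter gave 0.47 without overlap. Ccnb2, a B-type cyclin, gave 1582, 1105 and 937 in Insig1-deleted pools, against 836, 803 and 820.0 in floxed control pools. The control pools lay within 33 signal units of each other and below all deleted pools (log2 0.52 ± 0.21, adjusted p = 0.37; 0.31 without deleted replicate 1). Aurka, the kinase of the spindle poles, had 689.6, 554 and 490.5 in Insig1-deleted pools, against 389, 432 and 349.6 in floxed control pools. Its groups did not overlap either (log2 0.56 ± 0.24, adjusted p = 0.40).

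Cdk1, the kinase that drives mitosis, had the largest fold change of the 37 and also the widest error. Its signals were 867, 601 and 278 in Insig1-deleted pools, against 303, 41.7 and 346 in floxed control pools. Control replicate 2 was far below the other pools, and deleted replicate 3 lay below control replicates 1 and 3 (log2 1.68 ± 0.78, adjusted p = 0.42). Without control replicate 2 the log2 fold change was 0.70. Ccna2, cyclin A2, had log2 0.36 ± 0.28 on its brightest probe set and -0.23 on the other. Without control replicate 1 the value of the brightest was 0.018, and without control replicate 2 it was 0.58. Ube2c, the ubiquitin-conjugating enzyme of the anaphase-promoting complex, had log2 0.24 ± 0.22, and Cdca3, an adaptor for destruction of a mitotic inhibitor kinase, 0.15 ± 0.22. The Ube2c value was 0.045 without control replicate 3 and 0.46 without control replicate 2, and the Cdca3 value was -0.0031 without control replicate 1. A dimmer Cdca3 probe set above the filter gave -0.54.

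Foxm1, the transcription factor of the mitotic programme, was the one tested gene of this role below 0. It gave 1121, 812 and 693 in Insig1-deleted pools, against 914, 851 and 1113 in floxed control pools. The groups overlapped (log2 -0.15 ± 0.22, adjusted p = 0.84), and without deleted replicate 3 the value was 0.0013. A dimmer Foxm1 probe set above the filter had 419, 324 and 394 in deleted pools against 482, 635 and 587 in control pools (log2 -0.58), so that all deleted pools were lower there. Of those below the filter one gave -1.46 and another 0.46. Plk1, a kinase of spindle assembly and mitotic entry, lay below the filter and was not tested. Its signals were 378, 328 and 462 in Insig1-deleted pools, against 249, 172 and 125 in floxed control pools, and the deleted pools were the higher ones throughout. Ccnb1, cyclin B1, had no probe set naming it alone here and was not analysed.

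**Figure D3:**
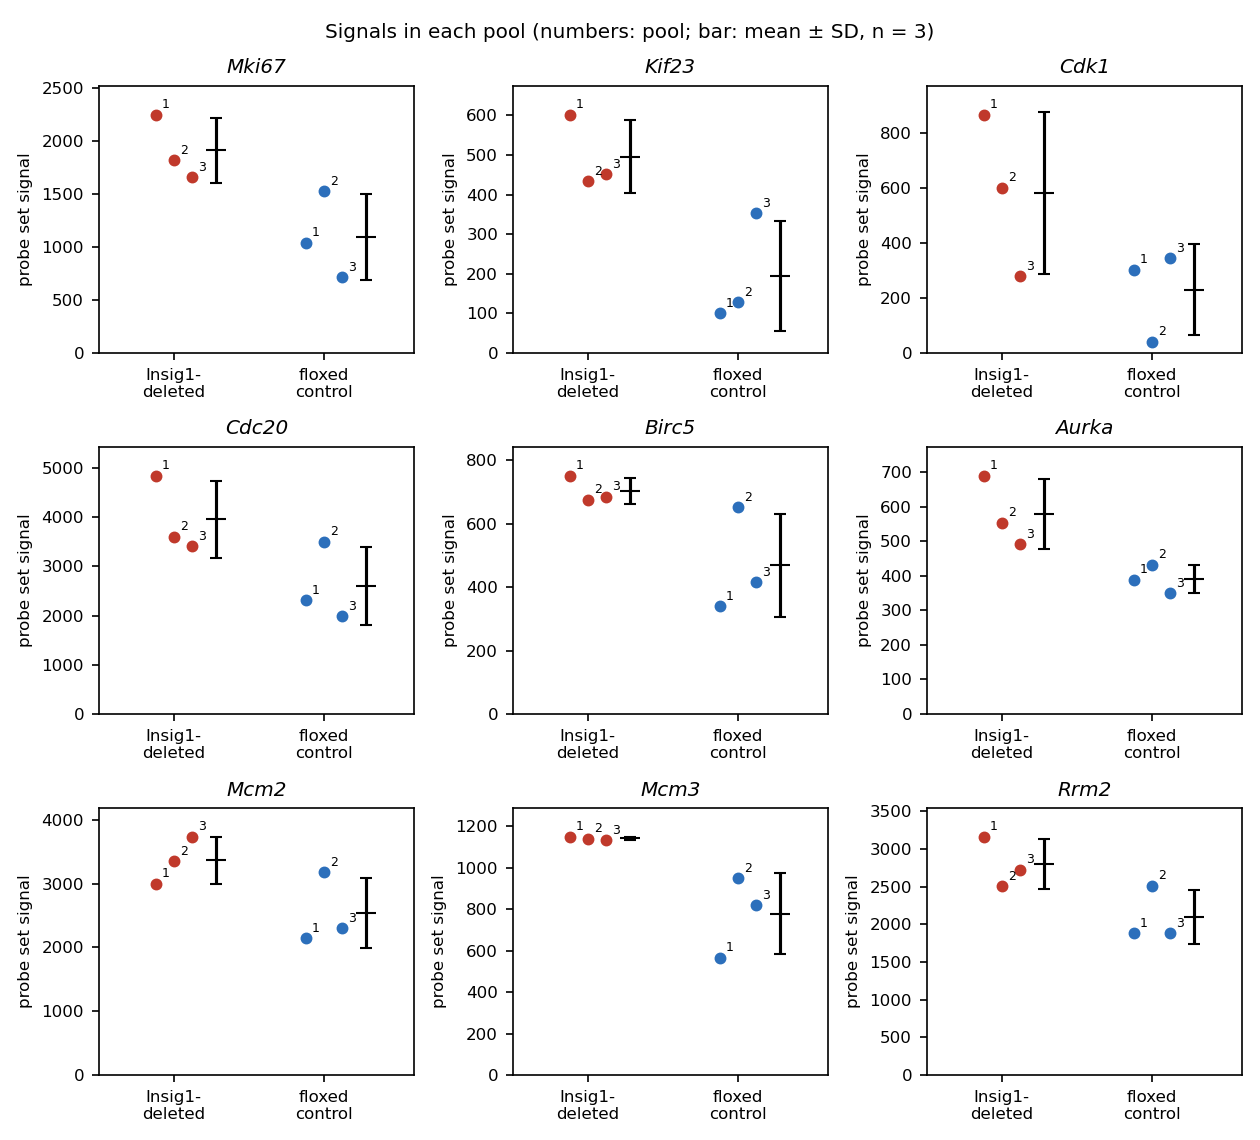
Probe set signal on a linear scale from 0 (vertical axes) in each Insig1-deleted and floxed control pool for 9 genes, with the pool number beside each point and a bar for the mean ± SD (n = 3). For Mki67, Kif23, Birc5, Aurka and Mcm3 the groups do not overlap, and the second control pool lies highest of the controls for 7 of the 9 genes.

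The genes of the spindle midzone and of cytokinesis had a median log2 fold change of 0.50, with 5 of 6 above 0 (49.1% of all tested genes). Kif11, Kif20a and Kif23 among them passed the filter only through the deleted pools, so this summary partly reflects the filter. Kif23, a kinesin of the centralspindlin complex that bundles midzone microtubules, had signals of 602, 434 and 451 in Insig1-deleted pools, against 100.2, 128 and 353 in floxed control pools. Every deleted pool lay above every control pool, and 2 of the 3 controls were far below the filter. The log2 difference was 1.57 ± 0.47 (adjusted p = 0.24). Its dimmer probe sets, all below the filter, gave 0.47 and -0.38. Kif20a, the kinesin that carries the passenger complex to the midzone, had 549, 319 and 352 in Insig1-deleted pools, against 263, 253 and 145 in floxed control pools. These groups did not overlap (log2 0.89 ± 0.37, adjusted p = 0.38).

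Nusap1, a microtubule-stabilising spindle protein, had a log2 fold change of 0.55 ± 0.26, and Prc1, which crosslinks midzone microtubules, 0.45 ± 0.25. Kif11, the kinesin that pushes spindle poles apart, had 0.31 ± 0.35 at a signal near the filter. All of these had overlapping groups. Without control replicate 1 the Nusap1 value was 0.29, and without control replicate 3 those of Prc1 and Kif11 were 0.23 and 0.15. Tpx2, an activator of Aurora A on spindle microtubules, had 674, 542 and 631 in Insig1-deleted pools, against 496, 700.5 and 1011 in floxed control pools. Its control pools spread widely, the log2 fold change was -0.20 ± 0.27 (adjusted p = 0.83), and without control replicate 3 it was 0.056. The probe sets of Tpx2 went both ways, with -0.77 on the other one above the filter and 0.42 and 0.51 on those below it.

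In the chromosomal passenger complex, which corrects chromosome attachment and guides cytokinesis, both tested genes had groups that did not overlap. Among all tested genes 9.2% were higher in this way. Birc5, which encodes survivin, had 752, 676 and 685 in Insig1-deleted pools, against 339.5, 651 and 416 in floxed control pools. Control replicate 2 was just under the deleted range and the other controls were well below it (log2 0.64 ± 0.27, adjusted p = 0.39). Cdca8, which encodes borealin, had 862, 635 and 818 in Insig1-deleted pools, against 556, 619 and 404 in floxed control pools. Deleted replicate 2 and control replicate 2 lay side by side (log2 0.56 ± 0.24, adjusted p = 0.40). Aurkb, the kinase of the complex, lay below the filter, with 286, 266 and 269 in Insig1-deleted pools, against 163, 191 and 284 in floxed control pools. These groups overlapped, while a still dimmer Aurkb probe set gave log2 0.94 without overlap.

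Among kinetochore and spindle checkpoint genes the values were mixed. Cenpa, the histone variant that marks centromeres, had 1149, 829 and 884 in Insig1-deleted pools, against 827, 406 and 676 in floxed control pools. The lowest deleted pool and the highest control pool differed by little more than 1 unit (log2 0.63 ± 0.28, adjusted p = 0.41), and without control replicate 2 the log2 value was 0.34. Bub1b, a checkpoint component, had log2 0.44 ± 0.27, with 0.59 on its other probe set above the filter, where the groups did not overlap. Its brightest gave 0.20 without control replicate 3. Bub1, a checkpoint kinase, had 0.0054 ± 0.27, and its sign turned with array weights or without deleted replicate 1 or control replicate 3. Ttk, the kinase that starts the checkpoint, lay below the filter and was the one measured gene whose deleted pools were all lower, at 173, 231 and 64.6 in Insig1-deleted pools, against 247, 310.1 and 260.4 in floxed control pools. Another Ttk probe set gave 1.67 at still lower signal. Cenpe, a kinetochore motor, was also below the filter, and its signals ranged from 49.3 to 303 in deleted pools and from 59.7 to 299 in control pools.

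**Figure D4:**
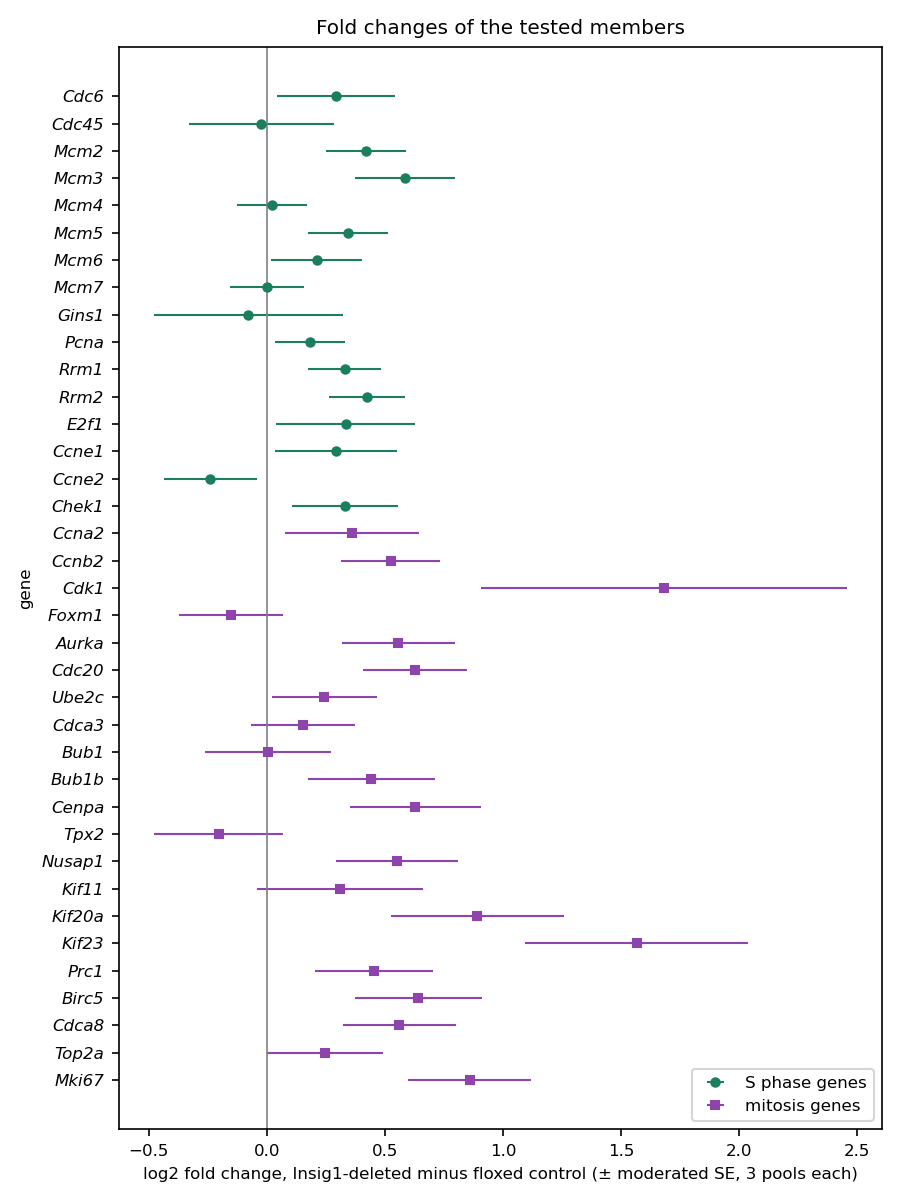
Log2 fold change (horizontal axis, Insig1-deleted minus floxed control, ± moderated SE, 3 pools each) of the 37 tested genes, ordered by role. Of the mitosis genes 19 of 21 lie right of 0 and of the S phase genes 12 of 16, and Cdk1 and Kif23 have the largest values and the widest errors.

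For origin licensing and the replicative helicase, 6 of 9 tested genes lay above 0 (median log2 0.21). The 6 subunits of the MCM helicase, which unwinds DNA at the fork as a ring of Mcm2 to Mcm7, were unequal. Mcm3 had signals of 1149.6, 1139.8 and 1133 in Insig1-deleted pools, against 566, 949 and 820.2 in floxed control pools. The deleted pools were almost identical to each other and above all controls (log2 0.58 ± 0.21, adjusted p = 0.33; 0.37 without control replicate 1). Its 3 dimmer probe sets above the filter gave 0.59, 0.20 and 1.07. Mcm2 had 3001, 3356 and 3739 in Insig1-deleted pools, against 2146, 3177 and 2300.2 in floxed control pools. Control replicate 2 lay between deleted replicates 1 and 2 (log2 0.42 ± 0.17, adjusted p = 0.37), and the other Mcm2 probe set gave 0.43 with groups that did not overlap.

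Mcm5 had 2320.2, 1894 and 1889 in Insig1-deleted pools, against 1312, 1665 and 1865 in floxed control pools. Its groups did not overlap, but deleted replicates 2 and 3 and control replicate 3 lay close together (log2 0.34 ± 0.17, adjusted p = 0.46; 0.20 without control replicate 1). Mcm6 had 1688, 1408 and 1492 in Insig1-deleted pools, against 1276, 1054 and 1703 in floxed control pools, with control replicate 3 the highest pool (log2 0.21 ± 0.19; 0.049 without control replicate 2 and 0.40 without control replicate 3). Mcm4 had 2963, 2404 and 2868 in Insig1-deleted pools, against 2399, 2609 and 3119.8 in floxed control pools, and here too control replicate 3 was highest (log2 0.021 ± 0.15). Mcm7 had 6324, 6374 and 6529.7 in Insig1-deleted pools, against 6173, 8138 and 5250.1 in floxed control pools. Control replicate 2 was highest and the log2 fold change was -0.00093 ± 0.16, while its 3 dimmer probe sets gave 0.50, 0.090 and 0.21. The signs of Mcm4 and Mcm7 turned between settings.

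The other factors of origin firing showed no common direction. Cdc6, which loads the helicase, had a log2 fold change of 0.29 ± 0.25, which was 0.13 without deleted replicate 3. Cdc45, which joins the MCM ring in the active helicase, had 536, 679 and 439 in Insig1-deleted pools, against 678, 361 and 684 in floxed control pools. Its groups overlapped (log2 -0.023 ± 0.31, adjusted p = 0.99). Gins1, a subunit of the GINS complex of the active helicase, had 275, 494 and 290.0 in Insig1-deleted pools, against 410.0, 532 and 213 in floxed control pools, again with overlap (log2 -0.078 ± 0.40, adjusted p = 0.96). The values of Cdc45 and Gins1 turned positive with quantile normalization, with a common median and without some of the pools. Gins2, of the same complex, lay below the filter, between 117 and 176 in deleted pools and between 117 and 298 in control pools.

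The 3 tested genes of the sliding clamp and nucleotide supply lay above 0 (median log2 0.33). Rrm2, the regulated subunit of ribonucleotide reductase, had 3165, 2509 and 2728 in Insig1-deleted pools, against 1885, 2516 and 1887 in floxed control pools. The lowest deleted pool lay just under control replicate 2 and the other controls were lower (log2 0.42 ± 0.16, adjusted p = 0.34). The next brightest Rrm2 probe set gave 0.22 with overlapping groups. The dimmest had 669, 669.5 and 603 in deleted pools against 372, 466 and 289 in control pools, with no overlap (log2 0.81). Rrm1, the large subunit, had a log2 fold change of 0.33 ± 0.16 with groups that did not overlap. Pcna, the sliding clamp, had 23209.7, 31008 and 24684 in Insig1-deleted pools, against 19459, 25159.8 and 24818 in floxed control pools, which overlapped (log2 0.18 ± 0.15, adjusted p = 0.68; 0.058 without deleted replicate 2). Tyms, the thymidylate synthase gene, had 4 probe sets that all lay below the filter. The brightest had 245, 129 and 141 in Insig1-deleted pools, against 132, 178 and 29.8 in floxed control pools (log2 0.89). The dimmer Tyms probe sets went the other way, at -0.69, -1.33 and -0.35.

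Regulators of S phase entry gave no gene at an unadjusted p under 0.05 among 4 tested. Of all tested genes 6.05% were higher and 6.02% lower, so a count over so few genes does not set this role apart. E2f1, an activator of S phase genes, had 475, 561 and 790.2 in Insig1-deleted pools, against 567, 550.4 and 337 in floxed control pools. Control replicate 3 was lowest and the groups overlapped (log2 0.33 ± 0.29, adjusted p = 0.72; 0.091 without control replicate 3). Ccne1, cyclin E1, had 1801, 1023 and 2165 in Insig1-deleted pools, against 1206, 1433 and 1255 in floxed control pools, with deleted replicate 2 below all controls (log2 0.29 ± 0.26; 0.61 without deleted replicate 2 and 0.068 without deleted replicate 3). Its paralogue Ccne2 had the lowest log2 fold change of the tested genes, at -0.24 ± 0.20, with 1391, 994 and 999 in Insig1-deleted pools, against 1437, 1459 and 1087 in floxed control pools. It was -0.40 without deleted replicate 1 and -0.16 without deleted replicate 2. Chek1, the kinase of the replication checkpoint, had log2 0.33 ± 0.22, and 0.15 without deleted replicate 3. The other Chek1 probe set above the filter gave 0.45, and its groups did not overlap.

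Dimmer probe sets gave a further reading of the same RNA. The 33 genes with more than 1 probe set had 60 dimmer ones, of which 25 lay above the filter. Of these 25, 20 had a log2 fold change above 0 (median 0.26), where 46.1% of the 9691 dimmer probe sets of all genes did (median -0.024). Below the filter 19 of 35 lay above 0. The 5 negative values above the filter belonged to Cdc45, Ccna2, Foxm1, Cdca3 and Tpx2.

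Other genes of the same processes had smaller medians of the same sign. Of 50 other S phase genes 44 were tested, none passed the threshold by limma, 32 lay above 0 and the median log2 fold change was 0.18. At an unadjusted p under 0.05, 5 were higher and 2 lower (6.05% and 6.02% of all tested genes). Above 0 lay 49.1% of all tested genes. Mcm10, which helps the helicase start, had 1565, 1330.2 and 1103 in Insig1-deleted pools, against 770.4, 872 and 667 in floxed control pools, without overlap (log2 0.79 ± 0.19, adjusted p = 0.16). Cdt1, which loads the helicase with Cdc6, had a log2 fold change of 0.44 ± 0.15. Of 62 other mitosis genes 46 were tested, none passed, 35 lay above 0 and the median was 0.21. Of these 6 were higher and 0 lower when p was not adjusted (6.05% and 6.02% of all tested genes). Cks1b, a subunit that binds cyclin-dependent kinases, had 7089, 7110.4 and 7748 in Insig1-deleted pools, against 4811, 5644 and 4532 in floxed control pools, and every deleted pool was higher (log2 0.56 ± 0.12, adjusted p = 0.11). Its paralogue Cks2 had 0.47 ± 0.12.

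Genes of quiescence and the DREAM complex were centred on 0, with a median of 0.025 over 21 tested and 11 above 0 (49.1% of all tested genes). Cdkn1c, which encodes the cyclin-dependent kinase inhibitor p57, was the only one of them past the threshold (0.0232% of all tested genes were called lower). It fell to 2093, 2031 and 2236 in deleted pools, against 3577, 3309 and 4222 in control pools (log2 -0.80 ± 0.13, adjusted p = 0.036, limma).

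Markers of macrophages, which can divide in the lung, differed between the genotypes as well. Of 20 tested markers 10 rose and 0 fell (0.625% and 0.0232% of all tested genes), and 19 lay above 0 (median log2 0.998). Their summed signal ranged from 255837 to 266490 in deleted pools and from 159448 to 212294 in control pools. Lyz2, the only tested marker below 0 (log2 -0.094), made up a large part of these sums. Its mean signals were 114048 in deleted and 122380 in control pools. The listed markers Ear2 and Itgam were not tested. The scavenger receptor gene Marco had 3619.8, 4061 and 3280.3 in Insig1-deleted pools, against 522, 1229.9 and 684 in floxed control pools (log2 2.26 ± 0.28, adjusted p = 0.0087, limma). Gpnmb had a log2 fold change of 1.86 ± 0.18 and Mpeg1 of 1.37 ± 0.18, and the lysosomal marker Cd68 had 3188, 3219.5 and 3272 in Insig1-deleted pools, against 1694, 1533 and 1617 in floxed control pools. Of 13 tested lymphocyte markers 3 were higher and 0 lower before adjustment (6.05% and 6.02% of all tested genes). None of the 13 passed by limma, 12 lay above 0 and the median was 0.40. Their summed signal ranged from 22796 to 26475 in deleted pools and from 13662 to 28124 in control pools, where control replicate 3 was highest. Ccr7 had a log2 fold change of 1.27 ± 0.30 and Cd2 0.84 ± 0.25. The part of macrophages and lymphocytes in the values of the replication and mitosis genes was not tested.

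By pool, the median centred log2 signal of the mitosis genes was 0.45, 0.14 and 0.18 in deleted pools and -0.27, 0.091 and -0.43 in control pools. That of the S phase genes was 0.089, 0.068 and 0.093 in deleted pools and -0.28, 0.047 and -0.19 in control pools. Macrophage markers gave 0.47, 0.44 and 0.43 in deleted pools and -0.71, -0.26 and -0.41 in control pools. Control replicate 2 was the highest control for all of these lists. Lymphocyte markers differed from this, at 0.46, 0.26 and 0.35 in deleted pools and -0.66, -0.64 and 0.55 in control pools. Type II markers had a median log2 fold change of 0.099 over 15 genes, with none past the threshold by limma. Before adjustment 1 was higher and 0 lower (6.05% and 6.02% of all tested genes). All 15 tested airway markers lay below 0 (median -0.33), and 2 of them, Ccdc153 and Sox2, fell (0.0232% of all tested genes).

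**Figure D5:**
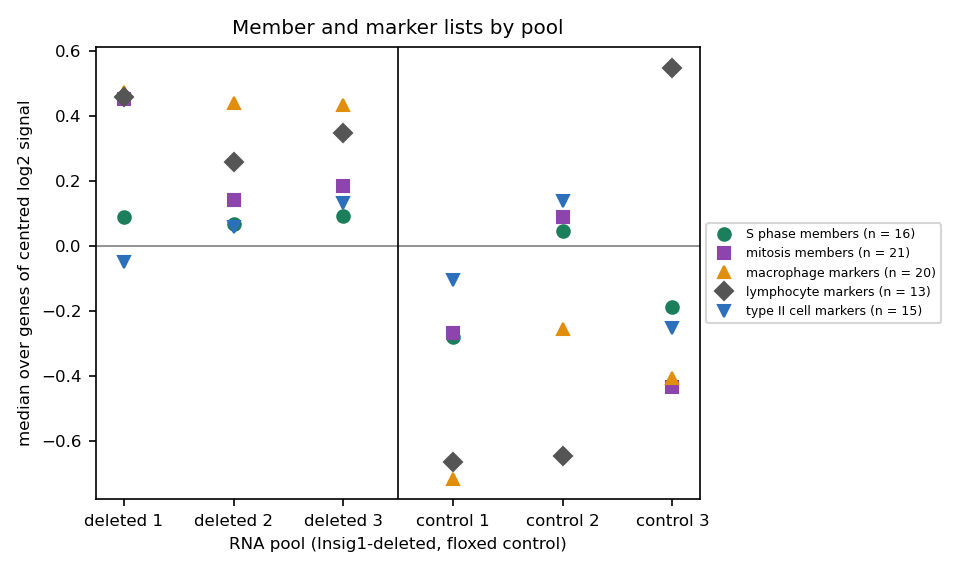
Median over genes of the log2 signal centred on each gene's mean over 6 pools (vertical axis) in each Insig1-deleted and floxed control pool, for S phase genes, mitosis genes and markers of macrophages, lymphocytes and type II cells. Macrophage markers lie between 0.43 and 0.47 in deleted pools and below 0 in control pools, while the mitosis genes of the second control pool lie at 0.091.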

How the data were processed

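The authors deposited 1 signal intensity per probe set and array. MAS5 is named in the submitters' processing notes, without a version. In the deposited values the means trimmed to percentiles 2 to 98 lay between 1499.56 and 1500.01. Labelling with biotin followed Affymetrix protocols, per the labels. Of 45101 probe sets 64 were controls, 34945 named 1 gene, 932 several and 9160 none here. The log2 of each signal was taken after a floor of 1. Probe sets below the 40th percentile of mean log2 signal (8.08, a signal of 270.6) were left out, and the brightest remaining probe set stood for a gene. The 3 deleted and 3 control pools were set against each other in limma 3.58.1 (R 4.3.3, intensity trend, two-sided), with p-values adjusted over 12952 genes by Benjamini-Hochberg. Precision is limited by the number of arrays: an exact permutation test of 3 pools against 3 cannot go below 0.1. The genes, lists and named-gene rule were chosen with earlier results of these data known. Named in full were the 12 tested genes with the smallest p, core replication and mitosis genes, genes below 0, and up to 4 genes of each other list. Lists held other S phase, other mitosis and quiescence genes and cell type markers. Their medians and counts carry no test. Those not given above were neutrophil (3 tested, median log2 0.95), erythroid (2, -0.48), type I (12, 0.038), endothelial (12, -0.098, Car4 higher at an adjusted p of 0.030) and mesenchymal markers (13, -0.13). Alternatives covered scaling, offset, variance model, array weights, filter, probe set summary, pool number as a block, thresholds and each pool left out. The fit was tested on simulated data. Figures used matplotlib 3.10.9.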

Additional observations from a re-analysis of the deposited data

How the results depend on the processing

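The median log2 fold changes stayed positive in every alternative, and those of the 37 genes and of the 21 mitosis genes moved by less than the SD between pools. The S phase median ranged from 0.14 to 0.37 when single pools were left out. The number of these genes past the adjusted threshold was 0 except for 1 with array weights (Kif23) and 0 to 2 without single pools. It was 11 at an unadjusted p under 0.05. Genes called among all tested were 84, against 259 with array weights, 29 without an intensity trend, 129 at a threshold of 0.1 and 15 to 477 without single pools. Without single pools the count at an unadjusted p under 0.05 ran from 3 to 15 (mitosis 2 to 11, S phase 0 to 4), and the count without overlap from 12 to 23, where 4.05% to 7.84% and 12.4% to 15.9% of all tested genes met each criterion. The S phase count was 6 with array weights and 5 with a common median. With a common median, which moved the median of all genes to 0.074, 17 genes did not overlap (12.8% of all genes), 34 lay above 0 and 62.4% of all genes did. With the filter at the 60th percentile 23 of these genes were tested, 20 lay above 0 (51.3% of all genes), 6 were higher at an unadjusted p under 0.05 (6.81%; 3 of the 6 were mitosis genes) and 6 did not overlap (10.2%). Fewer genes were tested there. Elsewhere the cause was not tested.

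Of the 37 genes, 29 kept the sign of their fold change in each alternative that measured them. With quantile normalization Cdc45 was at 0.058 and Gins1 at 0.037, with a common median Cdc45 at 0.056, Gins1 at 8.2e-05 and Mcm7 at 0.078, with array weights Bub1 at -0.22 and Mcm7 at 0.010, and with the mean over probe sets Cdca3 at -0.19 and Mcm7 at 0.20. Without single pools Bub1 ran from -0.24 to 0.16, Cdc45 from -0.33 to 0.13, Cdca3 from -0.0031 to 0.24, Foxm1 from -0.35 to 0.0013, Gins1 from -0.46 to 0.20, Mcm4 from -0.062 to 0.13, Mcm7 from -0.15 to 0.17 and Tpx2 from -0.46 to 0.056. The pool number as a replicate block gave 132 genes called among all and 0 of these, and 11 at an unadjusted p under 0.05. Deviations of pools with the same number correlated at 0.0745, 0.0405 and 0.146. Each control pool correlated best with the deleted pool of its own number. Deleted replicate 2, however, correlated better with control replicate 1, at 0.0517. Correlations this weak cannot decide whether the numbers pair the pools.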
